A study of Mus musculus with 30 samples.

Results

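The daily program of the liver at 6 months of age was read from 6 RNA-seq libraries of wild type C57BL/6J male mice, 1 at each of zeitgeber time (ZT, hours after lights on) 1, 5, 9, 13, 17, and 21. They are 6 of the 30 liver libraries of the series, which also holds the same 6 time points at 2 and at 12 months (6 libraries each) and 12 libraries of wild type (WT) mice and of *Egr-1* knockout (KO) mice at the same 3 ages. The KO mice lack *Egr-1* in hepatocytes, through Cre driven by *Alb*, and their WT littermates were on a background backcrossed to C57BL/6J. According to the methods, the mice lived under 12 h of light and 12 h of dark with chow at all times. How many mice gave RNA to a time course library is not given in the sources used here. Each time point had 1 library, so no spread between mice was measured, and the scatter of the 6 values around a 24-h curve (3 residual degrees of freedom) took the place of replicates. The p-values below measure only that scatter.

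In liver, a transcriptional clock of BMAL1 (the product of *Arntl*) and CLOCK drives its own repressors, the PER and CRY proteins, and the REV-ERB receptors (*Nr1d1*, *Nr1d2*), which in turn hold down *Arntl*. Outputs such as DBP and TEF carry the rhythm to genes of drug, bile acid, and lipid metabolism. Feeding, which mice do mostly in the dark, and hormones such as glucocorticoids set further rhythms in the same tissue.

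The question was which genes followed a 24-h curve in these livers, when they peaked, and what they do. A cosine with a 24-h period was fitted to log2 CPM, the read count scaled to the library total, of each of the 9191 genes whose mean over the 6 libraries reached 5 CPM. Its amplitude is the distance from the mean of the curve to its peak on the log2 scale, given with its standard error (SE), and its peak time is given as a ZT. With edgeR's quasi-likelihood F-test and a Benjamini-Hochberg adjusted p under 0.05, 329 genes (3.58%) were called rhythmic. At an unadjusted p under 0.05 the same test passed 1981 genes (21.6%). Of the called genes, 8 reached a mean of 5 CPM only through their highest library, 5 of them at ZT5 (*A2m*, *Gm10309*, *Reg3b*, *Slc13a5*, and *Sox9*) and 3 at ZT13 (*Pcsk4*, *Per3*, and *Rgs16*). The median amplitude was 0.71 over the called genes and 0.19 over all genes tested. From peak to trough, the fitted curves of 282 of the called genes spanned over 2-fold and those of 87 over 4-fold. An exact permutation test on the order of the 6 values, of the kind JTK_cycle uses, gave its smallest possible p of 0.0333 to 159 of the 329 called genes and to 847 of the 9191 tested (9.22%), and no gene passed it after adjustment. The count rested on single libraries. It was 5 without the ZT13 library, 17 without ZT17, and 86 without ZT21, but 577 without ZT1, 575 without ZT5, and 359 without ZT9. In each of these 6 fits all 329 genes kept their peak within 2 h. The genes were chosen for a close fit to the same values, so this says little about how sure their peak times are.

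The total count was 13375377 to 15464470 per library, and 3 reads, the floor used here, corresponded to 0.188 to 0.221 CPM. The ZT5 library stood apart from the others. It held the highest value of 2076 genes tested and the lowest of 2305, its mitochondrial share was 5.49% against 7.46% to 9.56% in the other libraries, and it was the highest library in 118 of the 329 called genes. Of the 329 genes, 294 were also called without it. As a group, the 6-month livers had high levels of acute-phase genes. On a scale normalized over the 18 time course libraries, the summed level of 19 acute-phase genes was 52860 to 156300 CPM at 6 months. It was 16450 to 22460 CPM at 2 months and 12380 to 25980 CPM at 12 months. Separate ranges at 6 and 2 months were not particular to this list. The sum of 26 genes of amino acid catabolism and the urea cycle was 11270 to 14920 CPM at 6 months and 17640 to 19900 CPM at 2 months. The summed level of 8 neutrophil markers was 26.2 to 148 CPM at 6 months, against 3.44 to 8.37 CPM at 2 months. Hepatocyte markers were abundant in every 6-month library, with a sum of 74590 to 111500 CPM in the normalization of the 6 libraries, which fits the label of liver. The part of the acute-phase state in the rhythms described here was not tested.

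Peaks were not spread evenly over the day. In bins of 4 h centered on the sampled times, 75 called genes peaked near ZT1, 92 near ZT5, 20 near ZT9, 37 near ZT13, 68 near ZT17, and 37 near ZT21. Near ZT5 lay 28.0% of the called genes and 19.9% of all genes tested, and near ZT9 it was 6.08% and 12.7%. The late light phase thus held the fewest called genes. Near ZT17 both shares were 20.7%. They were 22.8% and 17.7% near ZT1, 11.2% and 14.5% near ZT13, and 11.2% and 14.4% near ZT21. Without the ZT5 library, 72 of the 92 genes near ZT5 and 55 of the 68 near ZT17, the opposite phase, were still called, compared with all 75 near ZT1 and all 37 near ZT13.

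**Figure D1:**
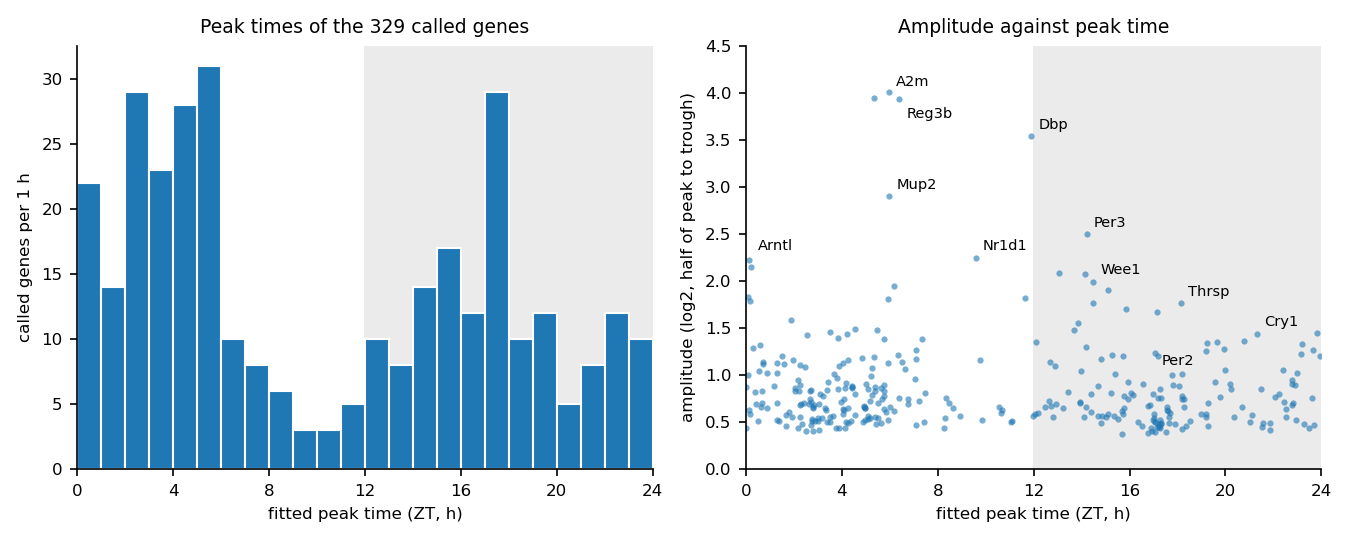
Fitted peak times of the 329 called genes (left, genes per 1 h) and their amplitude on the log2 scale against peak time (right, 1 point per gene), with the dark phase shaded. Many peaks lie before ZT6 and around ZT17, few lie between ZT8 and ZT12, and the largest amplitudes belong to *A2m*, *Gm10309*, and *Reg3b* near ZT6 and to *Dbp* at ZT11.9. Near ZT17 lay 20.7% of the called genes and 20.7% of all genes tested.

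*Dbp* had the smallest p of all genes and the largest amplitude in the clock. This gene (ENSMUSG00000059824, chr7:45705088-45710203 of GRCm38) encodes a PAR bZIP activator that binds D-boxes in the genes it controls. It measured 0.807 CPM at ZT1, 3.29 at ZT5, 60.9 at ZT9, 72.4 at ZT13, 13.6 at ZT17, and 1.32 at ZT21. The ZT1 value rests on 11 reads (exact Poisson 95% interval 0.403 to 1.44 CPM, counting error only). Its amplitude was 3.54 ± 0.17 (SE) with a peak at ZT11.91 ± 0.18 h (adjusted p = 0.000955). The related activator *Tef* rose from 17 CPM at ZT5 to 130 CPM at ZT13 and peaked at ZT13.85 ± 0.47 h. *Nfil3*, a repressor at the same D-boxes, ran in the opposite phase, from 54.0 CPM at ZT5 to 11.9 CPM at ZT13, with a peak at ZT1.28 ± 0.61 h. Activators and repressor of the D-box thus lay about opposite each other on the day. *Hlf* (24.4 CPM at ZT1 and 40.7 CPM at ZT17) and *Bhlhe40* (33.3 CPM at ZT5 and 98.8 CPM at ZT13) were not called, and *Bhlhe41* was too low to be tested.

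Among the activators, *Arntl* was 19.4, 17, 2.11, 1.07, 6.16, and 20.2 CPM from ZT1 to ZT21. It was low at ZT9 and ZT13 and high around lights on, with an amplitude of 2.22 ± 0.27 and a peak at ZT0.11 ± 0.46 h (adjusted p = 0.0235). *Clock* lay between 20.8 CPM at ZT13 and 66.2 CPM at ZT1 and did not pass (adjusted p = 0.0775). It passed without the ZT5 library (adjusted p = 0.0276). *Npas2* was below the level tested.

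The receptors that act on *Arntl* followed in order. *Nr1d1*, which encodes REV-ERBα, was 3.45, 13.2, 29.2, 18, 5.82, and 0.956 CPM from ZT1 to ZT21, with an amplitude of 2.25 ± 0.22 and a peak at ZT9.59 ± 0.37 h (adjusted p = 0.0062). *Nr1d2*, which encodes REV-ERBβ, was at 103 CPM at ZT9 and 99.0 CPM at ZT13 and fell to 10.2 CPM at ZT21, with a peak at ZT11.63 ± 0.32 h. Both of these receptors were therefore highest before and around dusk. *Rora* was nearly flat, between 39.5 and 55.6 CPM, and was not called.

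The PER and CRY repressors peaked through the dark phase. *Per3* was 0.661 CPM at ZT1, 0.365 at ZT5, 7.16 at ZT9, 11.7 at ZT13, 8.37 at ZT17, and 2.21 at ZT21, with an amplitude of 2.49 ± 0.36 and a peak at ZT14.22 ± 0.55 h. This gene reached the level tested only through its ZT13 library (mean 3.752 CPM in the others). *Per2* rose from 3 CPM at ZT5 to 23.6 CPM at ZT17 (peak ZT17.06 ± 0.61 h). *Cry1* was lowest at ZT9 with 3.86 CPM and highest at ZT21 with 29.9 CPM (peak ZT21.33 ± 0.42 h). These peaks follow each other by 2 h or more, beyond their SE. *Per1* was highest at ZT13 with 17 CPM against 5.44 to 9.91 CPM in the other libraries, and a 12-h component held 55.6% of its variation, so that the 24-h curve did not pass (adjusted p = 0.359). *Cry2*, with 7.60 to 20.6 CPM, did not pass either, and *Ciart* was too low to be tested. In all, 10 of the 16 clock genes tested were called, against 3.58% of all genes tested. These 10 and *Clock* were called without the ZT5 library.

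**Figure D2:**
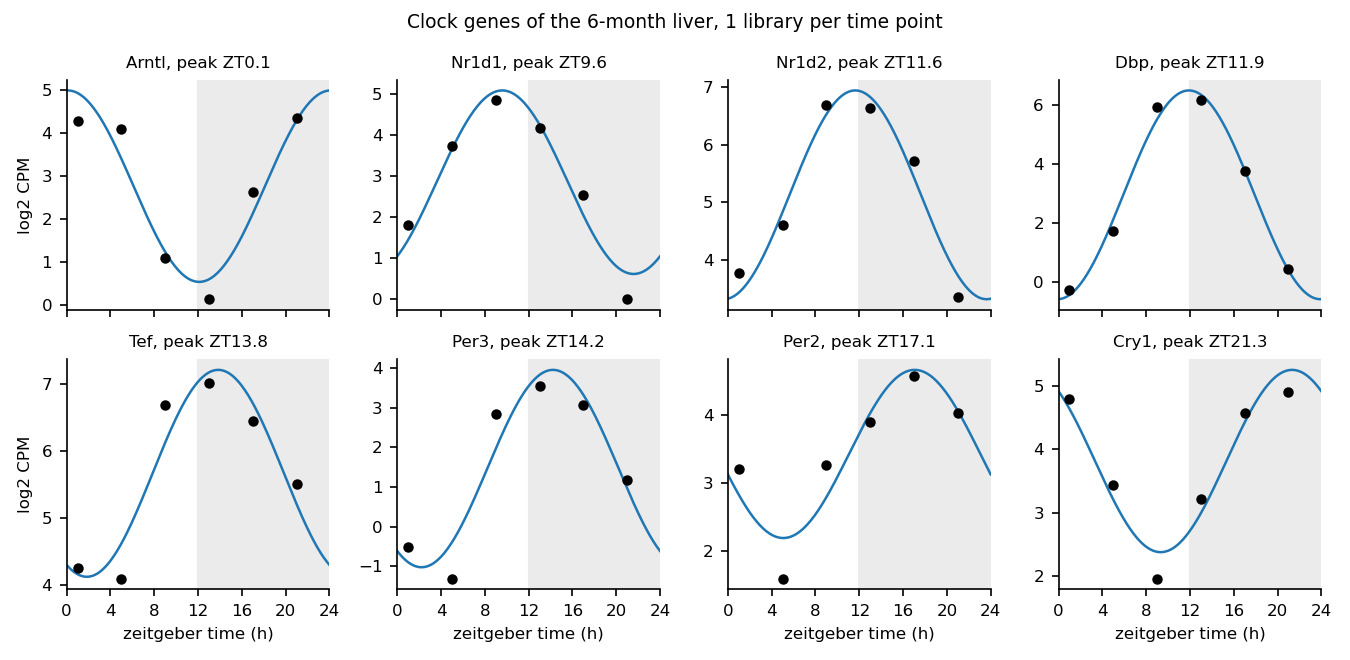
Log2 CPM of 8 called clock genes against ZT in the 6-month liver (points, 1 library each, with 0.5 added to each count) with the fitted 24-h curve (line) and the dark phase shaded. The peaks pass from *Arntl* at ZT0.11 through *Nr1d1* at ZT9.59, *Dbp* at ZT11.91, *Per3* at ZT14.22, and *Per2* at ZT17.06 to *Cry1* at ZT21.33.

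Several of these genes carry the short elements by which the loop is known to act within 250 bases of a start site, and these stretches are shown because the peak times of their genes differ. The sequences are RefSeq promoters of GRCm38.p6, read 5′ to 3′ on the strand of the gene, with the element in capitals. The E-box CACGTG, the site of BMAL1 and CLOCK, lies 60 bases before the start in *Cry1* (chr10:85185059-85185164, minus strand) and 127 bases before a start of *Tef* (chr15:81802496-81802601, plus strand). The D-box TTANGTAA occurs at 205 and again at 158 bases before the start in *Per3* (chr4:151044776-151044910, minus strand).
Cry1: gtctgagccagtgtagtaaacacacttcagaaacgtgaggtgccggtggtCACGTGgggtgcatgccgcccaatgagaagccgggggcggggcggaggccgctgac
Tef: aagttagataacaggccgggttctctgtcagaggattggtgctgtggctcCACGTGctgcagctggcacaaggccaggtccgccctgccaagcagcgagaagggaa
Per3: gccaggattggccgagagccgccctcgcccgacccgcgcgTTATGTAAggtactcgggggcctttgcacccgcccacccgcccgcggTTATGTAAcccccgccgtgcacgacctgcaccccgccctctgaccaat

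The REV-ERB and ROR element (RORE, searched as ANTNGGTCA on both strands) lies on the opposite strand 12 bases before the start in *Nfil3* (chr13:52981040-52981141, minus strand), and 29 bases past a start of *Arntl* (chr7:113207529-113207557, plus strand), of which only the site and its flanks are given. *Nfil3* peaked at ZT1.28 and *Arntl* at ZT0.11, between the ZT21 and ZT5 libraries, in which *Nr1d1* was 0.956 and 13.2 CPM.
Nfil3: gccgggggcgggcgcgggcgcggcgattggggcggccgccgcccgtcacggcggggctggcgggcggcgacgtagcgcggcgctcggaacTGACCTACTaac
Arntl: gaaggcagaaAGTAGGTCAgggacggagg

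Promoters of 300 bases, reaching 250 before to 50 after each start, were at hand for 7155 of the genes tested and for 245 called genes. The E-box was in 28.6% of the 35 promoters of called genes that peaked near ZT13, in 4.65% of the 86 near ZT5, and in 10.2% of the 9198 promoters of all genes tested. The RORE was in 5.06% of promoters near ZT1 and 5.71% near ZT21, in 0 near ZT9, ZT13, or ZT17, and in 1.79% over all genes tested. The D-box was in 8.57% of promoters near ZT21 and 6.67% near ZT17, against 1.75% over all. These shares rest on few promoters, with the E-box in 10 near ZT13, the RORE in 4 near ZT1, and the D-box in 3 near ZT21. Promoters of the same gene were counted separately, and the 35 near ZT13 come from 29 genes. The shares describe letters and not bound sites. The heat shock element GAANNTTC (5.81% of all promoters of genes tested) and the cAMP element TGACGTCA (3.13%) were also searched, all on both strands, and motifs of different kinds overlapped in 3 of the 9198 promoters. *Dbp*, *Nr1d1*, and *Nr1d2* held none of the motifs in these windows.

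Other genes with very large curves peaked around lights on. *Elovl3*, a fatty acid elongase, was 374 CPM at ZT21 and 288 CPM at ZT1 and fell to 19.6 CPM at ZT13 (amplitude 2.15 ± 0.19, peak ZT0.23). *Chka*, the choline kinase at the start of phosphatidylcholine synthesis, was 58.1 CPM at ZT1 and 5.52 CPM at ZT13. *Tubb2a*, a β-tubulin, ran from 129 to 10.4 CPM between the same libraries. All 3 fell and rose in the phase of *Arntl*, with peaks from ZT0.10 to ZT0.23. The mitochondrial protease subunit gene *Clpx* (327 CPM at ZT1, 62.8 CPM at ZT13) and the glycine decarboxylase gene *Gldc* (129 and 41.0 CPM) had smaller amplitudes, 1.32 and 0.88, and were among the 10 genes with the smallest p.

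At dusk and in the early dark, *Pcsk4*, a proprotein convertase, had nearly all of its variation (99.9%) in the 24-h curve. Its mean over the libraries other than ZT13 was 4.085 CPM, so that it was tested only through ZT13, its highest library. It was 0.881, 1.90, 7.44, 16.8, 8.37, and 1.84 CPM from ZT1 to ZT21 (amplitude 2.09 ± 0.17, peak ZT13.06 ± 0.31 h, adjusted p = 0.00322). *Usp2*, a deubiquitinase, rose from 1.83 CPM at ZT5 to 32.6 CPM at ZT13. *Wee1*, the kinase that delays entry into mitosis, rose from 1.02 CPM at ZT5 to 16.2 CPM at ZT13. *Upp2*, a uridine phosphorylase, rose from 44.5 to 661 CPM between these libraries. Each of these 4 genes was highest at ZT13 and had a fitted peak between ZT13.06 and ZT14.49. Enzymes of NAD synthesis were close by, with *Nampt*, the rate-limiting enzyme of NAD salvage, at 37.0 CPM at ZT1 and 131 CPM at ZT13 (peak ZT14.40), and *Nmrk1*, a nicotinamide riboside kinase, at 8.70 CPM at ZT5 and 39.7 CPM at ZT13 (peak ZT14.83). Of the list of NAD and cell-cycle genes, 2 of 8 tested were called (*Wee1* and *Nampt*), against 3.58% of all genes tested.

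The group with the most called members lay in the middle of the light phase. Of 19 acute-phase genes, whose proteins the liver secretes in inflammation, 12 were called (63.2%, against 3.58% of all genes tested). The 12 had peaks between ZT4.04 and ZT7.09, and 18 of the 19 were highest in the ZT5 library. *Fga*, which encodes the α chain of fibrinogen, was 6689, 12430, 5433, 3027, 2023, and 4805 CPM from ZT1 to ZT21 (amplitude 1.13 ± 0.15, peak ZT4.04 ± 0.51 h, adjusted p = 0.02). The other fibrinogen chains moved with it, *Fgb* between 3771 CPM at ZT17 and 15060 CPM at ZT5 and *Fgg* between 3229 and 13390 CPM. *Steap4*, a metalloreductase, was 818, 1588, 493, 309, 159, and 283 CPM (amplitude 1.49 ± 0.15, peak ZT4.55 ± 0.39 h). *Serpina3n* reached 5061 CPM at ZT5 and lay between 566 and 1471 CPM elsewhere. The fibrinogens and *Steap4* declined smoothly to ZT17, whereas *Serpina3n* had 1 high library. *Saa1* (5178 to 21980 CPM), *Saa2*, *Saa3*, *Saa4*, *Orm1*, *Orm2*, and *Lcn2* were not called, and reads of *Saa1*, *Saa2*, and *Saa3* may be shared between these similar genes. Without the ZT5 library, 9 of the 12 were still called, and *Il1rn*, *Hpx*, and *Hp* were not (adjusted p of 0.0566, 0.063, and 0.0761). The neutrophil genes *S100a8* (69.3 CPM at ZT5, 8.46 to 32.2 CPM elsewhere) and *S100a9* (61.4 CPM at ZT5, 10.8 to 29.6 CPM elsewhere) were called in the same phase, at ZT7.10 and ZT6.49, with or without the ZT5 library. They are the 2 of 8 neutrophil markers that were high enough to be tested. Of the other 6, *Retnlg*, *Mmp8*, and *Camp* were also highest at ZT5 (at most 5.33 CPM), whereas *Ly6g* was highest at ZT9 (0.491 CPM), *Csf3r* at ZT21 (3.75 CPM), and *Cxcr2* at ZT1 and lowest at ZT5 (0.438 CPM). Their part in the acute-phase curves was not tested. In bulk liver, more cells of a type and more RNA per cell cannot be told apart.

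**Figure D3:**
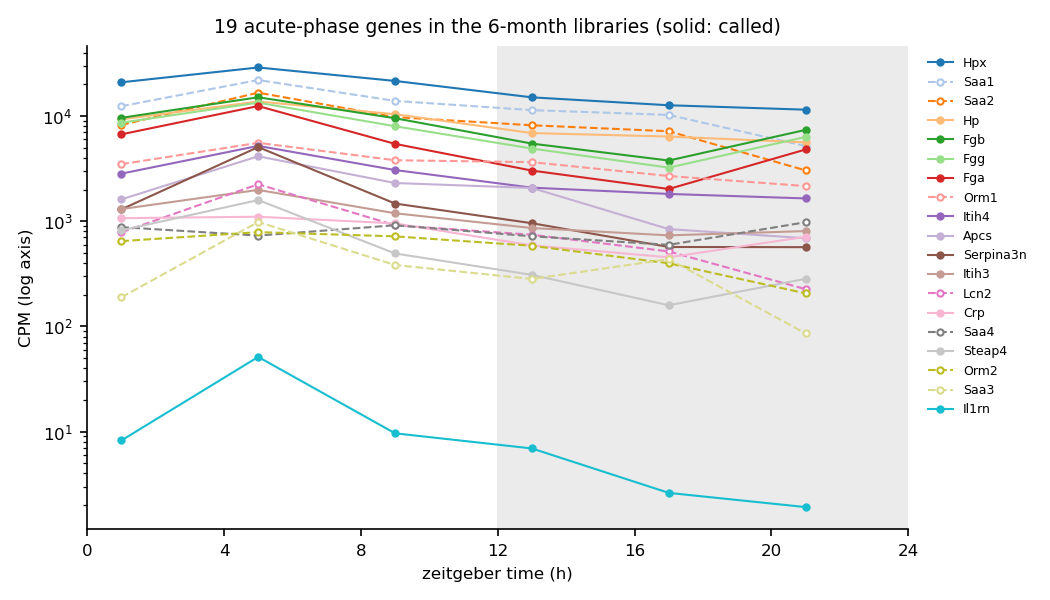
CPM (log axis) of 19 acute-phase genes against ZT in the 6-month libraries, with called genes as solid lines and filled points and the dark phase shaded. All genes except *Saa4* are highest at ZT5, and most decline to ZT17 or ZT21.

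The 3 genes with the largest amplitudes had fitted peaks near ZT6 and reached the level tested only through the ZT5 library. When they were kept in the edgeR test without that library, *Gm10309* and *Reg3b* did not pass (adjusted p of 0.21 and 0.38). *A2m* did pass (adjusted p = 0.0316), with an amplitude of 2.80 ± 0.55, although its mean over the other libraries was only 2.868 CPM. *A2m*, which encodes the plasma protease inhibitor α2-macroglobulin, was 187 CPM at ZT5, 6.25 at ZT9, 5.21 at ZT1, 2.26 at ZT13, 0.402 at ZT17, and 0.221 at ZT21 (amplitude 4.01 ± 0.65, adjusted p = 0.0231). *Reg3b*, a secreted lectin, was 55.5 CPM at ZT5, at most 0.753 CPM in the other libraries, and 0 at ZT21. *Gm10309* was 42.0 CPM at ZT5 and at most 1.05 CPM elsewhere. Their fitted amplitudes were 3.93 and 3.94.

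Several other named genes had a peak between ZT4 and ZT7. *Il1r1*, the interleukin-1 receptor, was 80.7, 153, 104, 57.9, 30.9, and 38.4 CPM from ZT1 to ZT21 (amplitude 1.12 ± 0.08, peak ZT5.95 ± 0.27 h, adjusted p = 0.00409). *Socs3*, the feedback inhibitor of STAT3, was 39.3, 94.2, 25.1, 15.0, 9.37, and 19 CPM (peak ZT4.24 ± 0.46 h). *Il1rn*, the antagonist of that receptor, was 51.2 CPM at ZT5 and 1.91 to 9.62 CPM elsewhere. *Il1r1* and *Socs3* were called with or without ZT5 (adjusted p of 0.00191 and 0.00552 without it). *St6gal1*, a sialyltransferase of the secretory pathway (182 CPM at ZT5, 30.6 CPM at ZT17), and *Serpina7*, which encodes thyroxine-binding globulin (286 CPM at ZT5, 58.4 CPM at ZT21), shared this phase with adjusted p of 0.00508 each. *Mup2*, a major urinary protein, peaked at ZT5.97 ± 0.43 h, but its highest library was ZT9 (445 CPM) and its lowest ZT17 (7.70 CPM), and its reads may be shared with other *Mup* genes. *Slc13a5*, the citrate transporter of hepatocytes, was 18.3 CPM at ZT5 and 1.18 CPM at ZT21, and it reached the level tested only through ZT5.

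Among 13 immediate-early genes tested, *Socs3* and *Junb* were called (15.4%, against 3.58% of all genes tested). *Junb* was 73.0, 87.5, 35.1, 29.9, 16.4, and 31.0 CPM (peak ZT3.87 ± 0.51 h). *Gadd45g* (92.7 CPM at ZT5, 6.76 to 27.0 CPM elsewhere) and *Btg2* (47.4 CPM at ZT5, 7.50 to 20.8 CPM elsewhere) did not pass, with adjusted p of 0.0697 and 0.136. The highest library was ZT5 in 7 of the 13. *Egr1*, the transcription factor that the series is about, was 36.7 CPM at ZT5 and 3.01 to 9.03 CPM elsewhere, and its 24-h curve did not pass (adjusted p = 0.158, and 0.629 without the ZT5 library).

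Another list held chaperones of the endoplasmic reticulum (ER), which fold secreted proteins, and genes of the unfolded protein response. Of 24 tested, 4 were called (16.7%, against 3.58% of all genes tested), with peaks between ZT2.05 and ZT2.80. An unadjusted p under 0.05 was found in 16 of the 24, against 21.6% of all genes tested. *Hsp90b1*, which encodes GRP94, was 876, 1086, 699, 401, 494, and 753 CPM from ZT1 to ZT21 (amplitude 0.65 ± 0.10). *Sdf2l1* ran from 30.6 CPM at ZT13 to 124 CPM at ZT5, *Pdia4*, a disulfide isomerase, from 77.6 to 235 CPM, and *Edem1*, which takes part in ER-associated degradation, from 139 to 237 CPM. All 4 were lowest at ZT13, and all 4 were called without the ZT5 library. *Hspa5*, which encodes BiP, went from 507 CPM at ZT13 to 1526 CPM at ZT1 and did not pass (adjusted p = 0.0697). *Herpud1*, a gene of ER-associated degradation, was highest at ZT17 with 288 CPM and did not pass either (adjusted p = 0.377).

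Of 23 genes tested for cholesterol synthesis and uptake, 6 were called (26.1%, against 3.58% of all genes tested). Of these, 5 had a peak in the light, and the peak of *Pmvk* lay in the dark. An unadjusted p under 0.05 was found in 16 of the 23, against 21.6% of all genes tested. *Sqle*, the squalene epoxidase, was 72.5, 132, 61.5, 29.8, 32.6, and 52.7 CPM from ZT1 to ZT21 (amplitude 0.97 ± 0.13, peak ZT3.78 ± 0.50 h, adjusted p = 0.02). *Dhcr7*, the last enzyme of one branch, ran between 29.1 CPM at ZT13 and 56.4 CPM at ZT1. Both were lowest at ZT13. *Pmvk*, the phosphomevalonate kinase, had a peak at ZT22.91 ± 0.44 h and a range from 17.9 to 58.3 CPM. *Hmgcs1*, the cytosolic HMG-CoA synthase, was 391 CPM at ZT5 and 66.9 CPM at ZT13 and peaked at ZT2.45. Without the ZT5 library, 9 genes of the list were called, 5 of them among the 6, and *Msmo1* was lost (adjusted p = 0.0613). Over all genes tested, 575 of 9191 were called without that library.

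The promoter of *Hmgcs1* holds the sterol element TCACNCCAC, the site of SREBP factors, 137 bases before the start (chr13:119690164-119690272 of GRCm38.p6, plus strand), and is shown as the example of this group. The element was in 1.90% of the promoters of called genes and 1.27% of those of all genes tested.
Hmgcs1: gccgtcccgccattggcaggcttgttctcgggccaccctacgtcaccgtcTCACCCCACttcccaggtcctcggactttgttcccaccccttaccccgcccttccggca

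Of 11 genes of fasting, 2 were called (18.2%), and of 22 targets of PPARα and enzymes of fatty acid oxidation, 3 (13.6%), against 3.58% of all genes tested. *Irs2*, an adaptor of the insulin receptor, was 27.0, 31.6, 13.8, 6.53, 4.02, and 12.6 CPM from ZT1 to ZT21 (amplitude 1.46 ± 0.12, peak ZT3.52 ± 0.31 h, adjusted p = 0.00556). It was high in the light and low in the dark. *G6pc*, the last enzyme of gluconeogenesis, was highest at ZT1 with 183 CPM and lowest at ZT9 with 55.2 CPM (peak ZT22.23 ± 0.70 h). *Igfbp1*, at 122 CPM at ZT1 and 194 CPM at ZT5 against 7.72 to 14.7 CPM elsewhere, did not pass (adjusted p = 0.0553). *Cpt1a*, which admits fatty acids to mitochondria, was 94.3, 142, 217, 197, 128, and 102 CPM (amplitude 0.62 ± 0.07, peak ZT10.68 ± 0.44 h), and *Angptl4*, an inhibitor of lipoprotein lipase, was highest at ZT9 with 71.3 CPM and lowest at ZT21 with 27.1 CPM (peak ZT8.49 ± 0.43 h). *Acot4*, an acyl-CoA thioesterase of peroxisomes, peaked later, at ZT13.94 ± 0.65 h.

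Of 32 genes of drug metabolism tested, 11 were called (34.4%, against 3.58% of all genes tested). The fitted peaks of these 11 lay in the dark, from ZT13.44 to ZT23.83. *Alas1*, the first enzyme of heme synthesis, was 130, 82.4, 284, 530, 425, and 144 CPM (peak ZT14.20), and *Por*, which passes electrons to cytochrome P450 enzymes, reached 312 CPM at ZT13 against 102 CPM at ZT1. *Cyp2a5*, which oxidizes coumarin, was 114, 49.8, 169, 507, 603, and 228 CPM (amplitude 1.70 ± 0.14, peak ZT15.87 ± 0.32 h, adjusted p = 0.00714), with reads that may be shared with *Cyp2a4*. *Gstt2*, a glutathione transferase, ran from 19 CPM at ZT5 to 54.9 CPM at ZT17. *Ces1d*, a carboxylesterase, ran from 139 CPM at ZT9 to 903 CPM at ZT17 (peak ZT19.96 ± 0.39 h). *Ppard*, the nuclear receptor PPARδ placed in this list, came last, from 3.95 CPM at ZT13 to 24 CPM at ZT1. *Por* and *Alas1* were the earliest of the 11, and the carboxylesterase gene *Ces2a* (peak ZT21.85) and *Ppard* the latest. The abundant *Cyp3a11* (2108 to 3296 CPM) and *Cyp2e1* (2933 to 4305 CPM) were not called, nor was *Sult1a1*, a sulfotransferase that was highest at ZT5 (415 CPM). Without the ZT5 library, 12 genes of the list were called, 10 of them among the 11, and over all genes tested it was 575 of 9191.

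Of 21 genes of bile acid synthesis and transport, 2 were called (9.52%), and of 22 lipogenic genes, 2 (9.09%), against 3.58% of all genes tested. Counts of 2 say little about lists of this size. Each pair had 1 peak in the light and 1 in the dark. *Cyp7a1*, the rate-limiting enzyme of bile acid synthesis, was 25.2, 26.2, 74.6, 101, 120, and 82.0 CPM from ZT1 to ZT21 (amplitude 1.21 ± 0.15, peak ZT15.25 ± 0.47 h, adjusted p = 0.0222). *Abcg8*, a subunit of the sterol exporter, peaked at ZT9.86 ± 0.66 h and was the other bile acid gene called. *Cyp8b1*, which sets the share of cholic acid, was 89.4 CPM at ZT21 and 22.2 CPM at ZT9 and did not pass with all libraries (adjusted p = 0.0574), but did without ZT5 (0.00191). *Thrsp*, a lipogenic protein, was 566, 94.7, 151, 664, 1433, and 614 CPM (amplitude 1.76 ± 0.26, peak ZT18.14 ± 0.57 h, adjusted p = 0.0428), and it did not pass without ZT5 (adjusted p = 0.0593). *Elovl5*, an elongase, was in another phase, with 182 CPM at ZT1 and 82.8 CPM at ZT13 (peak ZT1.68 ± 0.48 h). The ZT5 library was the lowest in 13 of the 22 lipogenic genes, among them *Pklr*, the liver pyruvate kinase (44.9 CPM at ZT5 and 196 CPM at ZT17, adjusted p = 0.108). *Acly*, which makes cytosolic acetyl-CoA, and *Fasn*, the fatty acid synthase, were lowest at ZT9 (96.6 and 135 CPM) and did not pass (adjusted p of 0.0584 and 0.116). *Angptl8*, a hormone of the fed liver, was 31.7 CPM at ZT5 and 125 CPM at ZT17 (peak ZT16.55 ± 0.52 h). *Etnppl*, an enzyme of periportal hepatocytes, was 20.3 CPM at ZT5 and 61.9 CPM at ZT17 (peak ZT17.80 ± 0.33 h). In the same phase, *Nrep* ran from 3.95 CPM at ZT5 to 56.0 CPM at ZT13, and *Ppp1r1b* (2.60 CPM at ZT9, 18.5 CPM at ZT21) and the acetyltransferase gene *Nat8f5* (4.53 CPM at ZT5, 23.8 CPM at ZT21) later.

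**Figure D4:**
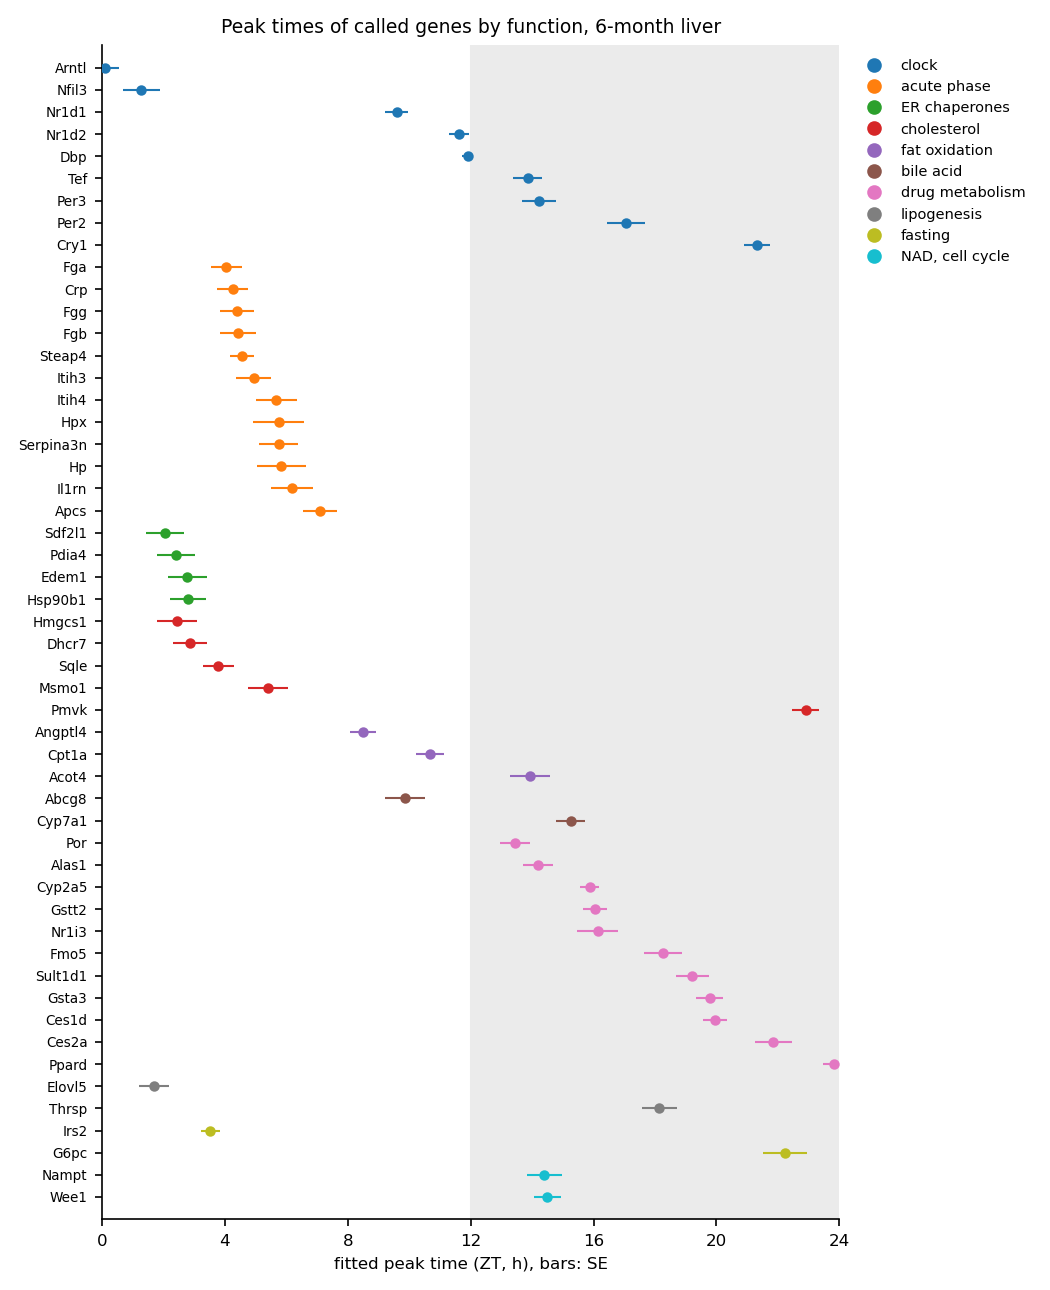
Fitted peak time (ZT, with SE bars) of called members of 13 gene lists joined in 10 groups, with the dark phase shaded. Acute-phase genes lie between ZT4.04 and ZT7.09, the called ER genes between ZT2.05 and ZT2.80, and those of drug metabolism between ZT13.44 and ZT23.83.

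In some lists no member was called, which at 3.58% called over all genes says little about lists of this size. Of 18 heat shock genes tested, 0 were called by edgeR and 12 had an unadjusted p under 0.05, against 21.6% of all genes tested. *Hspa8* (486 CPM at ZT5, 1467 CPM at ZT1) and *Bag3* (22.4 CPM at ZT5, 44.0 CPM at ZT1, adjusted p = 0.0588) were of that kind. Of 26 genes of amino acid catabolism and the urea cycle, 0 were called by edgeR and 12 had an unadjusted p under 0.05, with *Asl* closest (206 CPM at ZT9, 468 CPM at ZT21, adjusted p = 0.0744). Of 21 genes of ribosome biogenesis and of 9 lipid-droplet proteins, 0 were called, with 4 and 5 at an unadjusted p under 0.05. Without the ZT5 library, 3 heat shock genes, 2 genes of amino acid catabolism, 1 gene of ribosome biogenesis, and 0 lipid-droplet genes were called. Over all genes tested, 575 of 9191 were called without that library, more than the 329 with it. Of 13 glucocorticoid targets, *Klf9* was called (66.1 CPM at ZT9, 36.1 CPM at ZT21, peak ZT7.08), and without ZT5 it was 4 genes. *Cdkn1a*, with 73.4 CPM at ZT5 and 2.67 CPM at ZT9, was among them (adjusted p of 0.0658 with ZT5 and 0.00191 without). Of 13 genes of iron handling, *Slc11a2*, the iron transporter DMT1, was called (51.2 CPM at ZT5, 18.3 CPM at ZT13).

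Of 10 Kupffer cell, 10 endothelial, and 10 stellate cell markers tested, 0 were called, with 1, 6, and 0 at an unadjusted p under 0.05. Over all genes tested, 3.58% were called and 21.6% had an unadjusted p under 0.05. The summed levels of these cell types varied by 1.36 to 1.39 fold between libraries. Single markers varied more, such as *Lyve1*, a receptor of lymphatic and sinusoidal endothelium, with 61.3 CPM at ZT5 and 6.36 CPM at ZT17 (adjusted p = 0.173). The sum of 7 erythroid markers was 4484 CPM at ZT13, 3588 at ZT17, and 4327 at ZT21, against 1603 to 1793 CPM at ZT1 to ZT9, and *Hbb-bt*, a β-globin, was called (51.5 to 58.8 CPM at ZT1 to ZT9 and 171 to 227 CPM at ZT13 to ZT21). The sum of 8 cholangiocyte markers ran from 37.8 CPM at ZT21 to 143 CPM at ZT13, and that of 6 adipocyte markers from 474 CPM at ZT9 to 2342 CPM at ZT17. Most of the cholangiocyte sum was *Spp1*, with 25.2 CPM at ZT21 and 126 CPM at ZT13. Nearly all of the adipocyte sum was *Car3*, with 473 CPM at ZT9 and 2336 CPM at ZT17, while *Adipoq* was at most 1.41 CPM. These sums thus follow single genes and do not measure the content of these cells. The part of these cells in the curves of other genes was not tested. Of the pericentral genes 0 of 9 tested were called by edgeR (3 at an unadjusted p under 0.05), and of the periportal genes 1 of 10.

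A curve of 6 points over 24 h can be split exactly into parts with periods of 24, 12, and 8 h. Over all genes tested, the mean share of the variation was 54.6% for 24 h, 29.0% for 12 h, and 16.4% for 8 h. Values without any pattern in time would have mean shares of 40%, 40%, and 20%. The median shares observed were 57.3%, 22.9%, and 9.50%. A 12-h part over 80% was found in 368 genes (4%). Among called genes the largest 12-h shares were in *Reg3b* (22.5%), *Gm5096* (17.1%), *Rgs16* (16.6%), and *Raph1* (15.8%).

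The daily curves at 6 months were compared with those at 2 months in 12 libraries. The test of the terms by which the 2 curves differ passed in 27 of 9141 genes (0.295%, edgeR, adjusted p under 0.05), 22 of them among the 329, and 1204 genes had an unadjusted p under 0.05. In 21 of the 27, the amplitude was larger at 6 months. On the scale of these 12 libraries, *Sqle* was 72.5, 132, 61.7, 30.1, 32.5, and 52.2 CPM from ZT1 to ZT21 at 6 months and 32.9, 21.2, 20.3, 28.2, 35.5, and 52.5 CPM at 2 months (adjusted p = 0.0209). The 6-month livers had their maximum at ZT5, where the 2-month livers were near their minimum, and the fitted peak was 7.73 h later. *Fndc3b*, a fibronectin type III domain protein, was 88.0 CPM at ZT5 at 6 months and at most 33.4 CPM, at ZT13, at 2 months. *Prg4*, which encodes lubricin, was 162 CPM at ZT5 and 46.3 CPM at ZT17 at 6 months, and lay between 23.4 and 28.9 CPM at 2 months. *Steap4* went from an amplitude of 0.32 at 2 months to 1.49 at 6 months. It lay between 73.0 and 128 CPM at 2 months and between 158 and 1590 CPM at 6 months. Of the 27 genes, *Sqle*, *Fndc3b*, *Prg4*, *Steap4*, and *Lpgat1* were highest at ZT5 at 6 months. So were *Saa1*, *Lrg1*, *Socs3*, and the zinc and iron transporter *Slc39a14*. *Saa1* lay between 5137 and 22010 CPM at 6 months and between 79.3 and 325 CPM at 2 months. The count of 27 was 10 without the 6-month ZT5 library, 0 without ZT13, 1 without ZT17, 133 without ZT1, and 72 without ZT9.

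Other differences were shifts in time. *Nr1d1* peaked at ZT9.59 ± 0.37 h at 6 months and ZT6.43 ± 0.24 h at 2 months, and its amplitude was 2.25 against 3 (adjusted p = 0.0307). *Cyp2a5* was highest at ZT17 with 601 CPM at 6 months and at ZT9 with 663 CPM at 2 months, a fitted shift of 4.16 h. *Clec2h*, a C-type lectin, was 1.17 to 9.32 CPM at 6 months with a peak at ZT12.39 and 8.19 to 52.3 CPM at 2 months with a peak at ZT5.39. *Mup2* was highest at ZT9 at 6 months (446 CPM) and at ZT1 at 2 months (300 CPM). *Rgs16*, a regulator of G-protein signaling, lost amplitude, 1.49 at 6 months against 3.65 at 2 months, with 1.54 CPM at ZT5 at 6 months and 40.8 CPM at 2 months. *Car1* and the globin genes *Hbb-bt* and *Hba-a2*, all genes of red cells, were also among the 27. Across the 325 called genes with a curve at 2 months, the median shift was 1.68 h later at 6 months, and 239 of the 325 were later. Many of these curves did not pass at 2 months. Among the 166 genes called at both ages, the median shift was 1.905 h later, with a range from -10.66 to 7.69 h, and 144 were later. Shifts over all genes tested were not summarized, so these counts cannot be read as particular to the called genes. Of the 329 genes called at 6 months, 166 (50.5%) were called at 2 months, where 768 of all 9041 genes tested were called. The 166 were 21.6% of these 768, whereas 3.58% of all genes tested at 6 months were called.

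**Figure D5:**
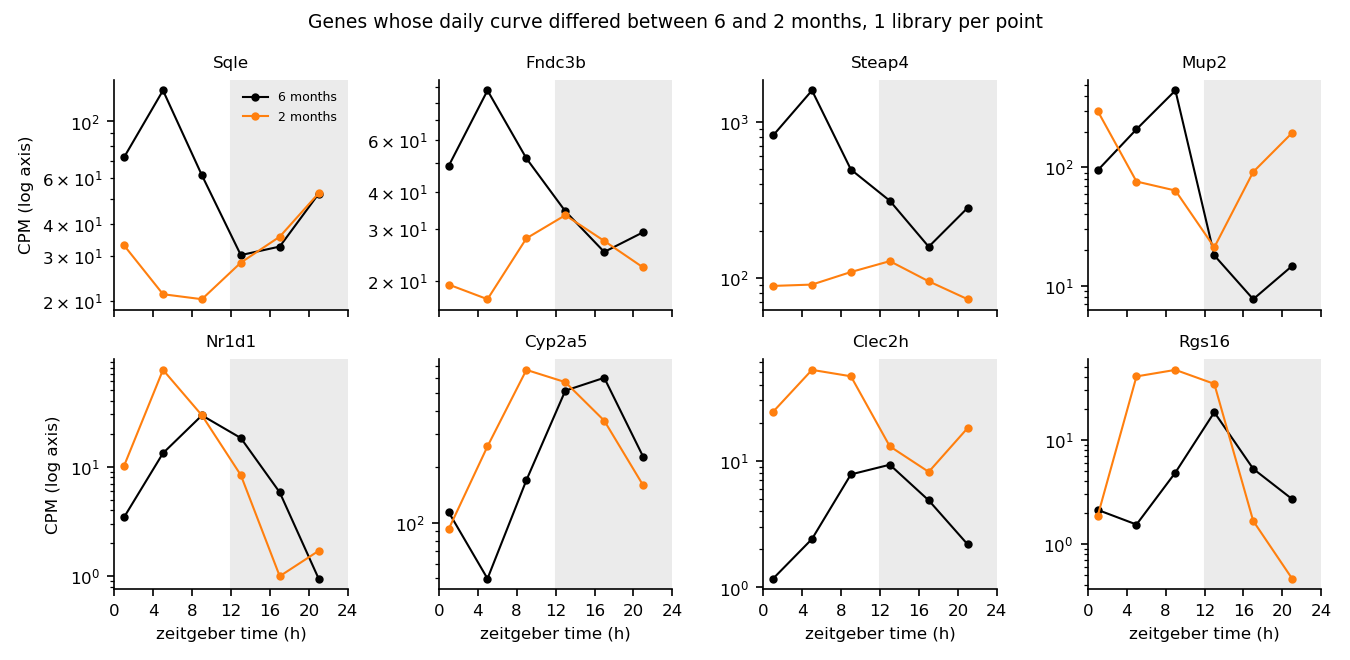
CPM (log axis) against ZT at 6 months (black) and 2 months (orange), 1 library per point, for 8 of the 27 genes whose daily curve differed between the ages, with the dark phase shaded. *Sqle*, *Fndc3b*, and *Steap4* are highest at ZT5 at 6 months, and *Nr1d1*, *Cyp2a5*, *Clec2h*, and *Rgs16* are higher at 2 months at ZT5.

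With 12 months, the same test passed in 3 of 9198 genes (0.0326%), and 1037 had an unadjusted p under 0.05. This comparison uses the same 6-month libraries as the one above. *Steap4* was 162 to 1621 CPM at 6 months and 72.0 to 96.8 CPM at 12 months (adjusted p = 0.031). *Clec2h* peaked 7.64 h later at 6 months than at 12 months, and *mt-Tc*, a mitochondrial tRNA, peaked at ZT16.90 against ZT7.87. Across the 325 called genes with a curve at 12 months, the median shift was 1.06 h later at 6 months, and 218 of the 325 were later. Among the 79 genes called at both ages, it was 1.04 h later, with a range from -5.78 to 10.48 h, and 62 were later. Shifts over all genes tested were not summarized here either. At 12 months, 214 of all 9191 genes tested were called. The 79 were 36.9% of these 214, whereas 3.58% of all genes tested at 6 months were called. Without the ZT17 library of 6 months, 0 genes passed by edgeR.

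A second set of 6-month livers gave a partial view of the same clock, with the WT and KO mice killed at the times of highest (H) and lowest (L) Egr-1 protein, which the methods place at ZT9 and ZT21. These libraries number 1 per group, and their values are given as a description, with no test. They were normalized apart from the time course, so levels of the sets are on separate scales and the ratio of H to L is set beside it. In the WT mice, *Dbp* was 46.1 CPM in H and 13.2 CPM in L, *Per3* was 13.2 and 2.92 CPM, *Cry1* was 16.1 and 47.1 CPM, and *Arntl* was 3.97 and 31.7 CPM. These 4 genes differed in the direction of the fitted curve in WT and also in KO, where *Dbp* was 35.9 and 6.92 CPM and *Arntl* was 6.08 and 14.3 CPM. *Nr1d1* was 11.6 and 12.5 CPM in WT, where the time course had 29.2 CPM at ZT9 and 0.956 CPM at ZT21, and 15.1 and 7.15 CPM in KO. Of the 329 called genes, 167 (50.8%) had the sign of the fitted difference between ZT9 and ZT21 in WT, compared with 44.3% of 9142 genes tested, and 235 (71.4%) had it in KO, compared with 54.4%. Among the 111 called genes with a fitted difference over 1 on the log2 scale, in either direction, it was 66 in WT (59.5%) and 93 in KO (83.8%). Over the 251 genes tested with such a fitted difference, it was 129 in WT (51.4%) and 184 in KO (73.3%). *Saa1* was 60.8 and 331 CPM in the WT livers and at least 5178 CPM in all 6 time course libraries. These levels are on separate scales, and their difference was not tested.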

How the data were processed

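The authors cleaned the reads, aligned them to mm10 with HISAT2, and deposited counts of reads per gene from featureCounts, without normalization. Per the labels, fastp was also used, and versions are not given in the sources used here. Counts of the time course (54429 symbols) and of the second set were used in full. Groups came from the labels. The software was edgeR 4.0.16 under R 4.3.3, with DESeq2 1.42.0 and limma 3.58.1 for alternatives, and promoters were searched in Python 3.11.15. Library totals were scaled by TMM factors, and genes with a mean of 5 CPM or more were tested by edgeR's quasi-likelihood F-test of the cosine and sine of 24 h with Benjamini-Hochberg adjustment. Curves were fitted to log2 CPM with 0.5 added to each count, with SE from the moderated residual SD of limma. The study used JTK_cycle, and an exact permutation test of that kind was an alternative here. Scripts were tested on simulated data.

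Genes were named by amplitude, p, membership of the clock lists, the smallest p in each other list, difference between ages, largest amplitude per peak bin, 12-h share, and single-library excess. The other list members were named after their values were seen. The members and lists were chosen with earlier results of these data known. Locations are from GENCODE M21 (9160 of 9191 tested symbols matched) and promoters from RefSeq of GRCm38.p6, which is the build mm10. Counting intervals and floors cover counting error only. A few list members and their results are not reported here. Fold changes and p-values of the study were not used.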

Additional observations from a re-analysis of the deposited data

Results flagged for a closer look

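The daily curve differed between ages in 27 genes for 6 against 2 months and in 3 genes for 6 against 12 months, by edgeR's test of the difference itself. The smallest adjusted p against 2 months was 0.02094, shared by *Fndc3b*, *Prg4*, and *Sqle*, and *Nr1d1* had 0.03068. Against 12 months it was 0.01085 for *mt-Tc*, 0.01271 for *Clec2h*, and 0.03103 for *Steap4*. At 6 months *Fndc3b*, *Prg4*, *Sqle*, and *Steap4* were highest in the ZT5 library, and without that library 10 genes passed against 2 months and 4 against 12 months.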

How the results depend on the processing

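Of the count of 329 rhythmic genes, RLE factors (326), library totals alone (334), a prior count of 2, limma-trend (338), and a minimum of 1 CPM (398) moved little. It was 652 without a filter on low counts, 877 with DESeq2's likelihood-ratio test, 638 in a fit of all 18 libraries, 847 by the exact permutation test at its smallest p (0 after adjustment), 1981 at an unadjusted p under 0.05, and 30 at an adjusted p under 0.01. Leaving out each library gave 5 to 577 genes. The difference from 2 months passed in 9 genes with library totals alone and 283 with DESeq2, and in 0 to 133 genes without 1 library of 6 months. The difference from 12 months passed in 175 genes with DESeq2, and in 0 to 5 genes without 1 library. The cause was not tested. Among named genes, the amplitude along the fitted peak turned sign in 3 uncalled ones. Without 1 library it was -0.0165 to 0.4745 for *Krt19* (-0.00145 without ZT5, -0.0165 without ZT9), -0.014 to 0.299 for *Lrat* (lowest without ZT9), and -0.00545 to 0.231 for *Rgs5* (lowest without ZT13). No paired analysis was possible because each group has 1 library. With 6 libraries and 1 per time, the spread between mice is unknown, and of the ages compared each time point has 1 library.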
